A study of Homo sapiens with 4 samples.

Results

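Respiratory complex I, the NADH:ubiquinone oxidoreductase of the inner mitochondrial membrane, was examined through the transcripts of its nuclear-encoded subunits in HCT116, a human colorectal cancer cell line, with and without a knockout of C14orf159. The subunits were taken by gene symbol, as NDUFA, NDUFB, NDUFC, NDUFS or NDUFV followed by a number, together with NDUFAB1. The symbol picked out 38 of the 26255 genes in the deposited tables, and the assembly factors (NDUFAF) were left aside. All 38 were among the 12701 genes that reached at least 1 FPKM in at least 2 libraries and were tested. FPKM stands for fragments scaled to transcript length and to the mapped total of the library, and carries the authors' scaling.

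The C14orf159-KO group held 2 libraries (KO replicates 1 and 2), and the control group held 2 libraries of the line after empty-vector transfection, named EV control replicates 1 and 2. The headers name the knockout libraries sgDGLUCY, after the current symbol of C14orf159, and the control libraries AAVS1, a genomic site widely used as a neutral target. C14orf159 encodes a matrix enzyme of mitochondria and is named in the study's title as a brake on Wnt/β-catenin signalling and on colorectal cancer metastasis. Nothing in the labels says whether a library stands for its own clone or culture. What the spread behind the p-values measures is thus not known, and between the EV controls it may be only technical. The KO libraries differed over the 94 tested genes distal of C14orf159 on chromosome 14. Their medians there were 57.7% (KO replicate 1) and 104% (KO replicate 2) of the EV control mean FPKM.

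Complex I takes electrons from NADH in the matrix, passes them along iron-sulfur clusters to ubiquinone, and pumps protons across the inner membrane. It is built as an L, with a matrix arm that holds the redox centres and a membrane arm that holds the proton channels. Its catalytic core combines nuclear-encoded subunits of the matrix arm with ND subunits encoded by mitochondrial DNA. The ND transcripts were not analysed here. The remaining nuclear subunits, called accessory or supernumerary, surround the core, and many of them are needed for its assembly or stability. NDUFA4 is kept among the 38 by its symbol, although it is now counted with complex IV.

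C14orf159 itself stood at 2.52 and 10.8 FPKM in the KO libraries, against 16.2 and 16.4 FPKM in the EV controls (limma-trend, adjusted p = 0.314). Read totals were not used here. Low steps of FPKM times length in genes with 1 annotated transcript gave rough depth estimates, in units of 1e6 fragments. These were 12.4 and 12.8 for the KO libraries and up to 13.4 for the EV controls. Only steps within a window fixed beforehand were used, which bounds the estimates, so they cannot show whether depth differed between libraries. As a check of the cell type, the epithelial genes EPCAM, KRT8, KRT18 and CDH1 lay between 22.8 and 1540 FPKM in every library and the intestinal factor gene CDX2 between 8.01 and 10.2 FPKM. The microvillus gene VIL1 was at most 0.0528 FPKM. Of the fibroblast, leukocyte and endothelial markers, CD68 had 1.88 to 2.87 FPKM, PTPRC, CD3E and COL1A2 were listed at 0 in all libraries, and COL3A1, PDGFRB, PECAM1 and VWF stayed at or below 0.135 FPKM.

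Sequence windows are shown for NDUFB1, the subunit whose KO libraries lie farthest apart, and for NDUFB4 and NDUFS4, the subunits with the smallest p-values. Each window runs from 250 bases before to 50 bases after the RefSeq start of the gene, 5′ to 3′ on the strand of the gene (GRCh38.p14, NDUFB1 chr14:92121657-92121956 on the minus strand, NDUFB4 chr3:120596086-120596385 on the plus strand, NDUFS4 chr5:53560389-53560688 on the plus strand). Capitals mark matches to motifs of factors known to act at promoters of respiratory genes, which were NRF1 (GCGCANGCG), the ETS family to which GABPA belongs (CCGGAAG), YY1 (AAGATGGCG) and the estrogen-related receptors (TCAAGGTCA).
NDUFB1: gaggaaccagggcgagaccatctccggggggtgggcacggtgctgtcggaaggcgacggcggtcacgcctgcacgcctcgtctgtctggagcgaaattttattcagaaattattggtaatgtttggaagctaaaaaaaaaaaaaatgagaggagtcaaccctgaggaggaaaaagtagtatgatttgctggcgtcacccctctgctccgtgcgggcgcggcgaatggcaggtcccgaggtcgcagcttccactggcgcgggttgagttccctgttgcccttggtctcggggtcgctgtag
NDUFB4: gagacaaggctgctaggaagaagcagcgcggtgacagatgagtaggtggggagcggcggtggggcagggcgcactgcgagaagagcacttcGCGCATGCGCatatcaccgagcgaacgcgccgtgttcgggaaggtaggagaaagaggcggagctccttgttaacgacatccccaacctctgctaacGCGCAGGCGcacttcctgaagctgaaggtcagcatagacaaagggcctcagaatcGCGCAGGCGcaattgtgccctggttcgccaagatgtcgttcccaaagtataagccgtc
NDUFS4: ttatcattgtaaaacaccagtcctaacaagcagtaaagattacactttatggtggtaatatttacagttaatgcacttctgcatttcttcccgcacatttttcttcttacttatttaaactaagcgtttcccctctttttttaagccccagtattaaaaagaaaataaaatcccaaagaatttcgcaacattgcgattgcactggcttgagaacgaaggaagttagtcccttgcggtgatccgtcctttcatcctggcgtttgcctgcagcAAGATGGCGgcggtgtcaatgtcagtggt

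The motifs were searched on both strands, and no match of 1 motif overlapped a match of another. The NDUFB4 window held 3 stretches matching the NRF1 motif, the NDUFS4 window held 1 match to the YY1 motif just after the start, and the NDUFB1 window held no match. Windows were found for 33 of the 38 subunits. The NRF1 motif was present in 9 of the 33 (27.3%), against 8.05% of 27305 promoter windows of all genes. That background was not limited to the genes tested here. The YY1 motif was present in 5 (15.2%, against 1.85% of all) and the ETS motif in 5 (15.2%, against 10.7% of all). The receptor motif was in 0 of 33, against 0.359% of all. A match describes the letters and does not show that a factor binds there.

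Across the tests of KO against EV control, 0 of the 38 subunits passed (limma-trend on log2(FPKM + 1), Benjamini-Hochberg adjusted p under 0.05 over all genes, smallest adjusted p among the subunits 0.216), where 0.11% of all tested genes did. At an unadjusted p under 0.05, 4 subunits were higher in KO, against a background of 9.23% of genes, and 0 were lower, against 7.22%. Those 4 were NDUFB4, NDUFS4, NDUFC1 and NDUFB5. The median log2 difference over the 38 was 0.09, beside 0.00 over all tested genes, and it was 0.0029 after correction for transcript length and GC content and 0.0018 without KO replicate 2. With 2 libraries in each group an exact permutation test of a single gene cannot go below p = 0.33 (two-sided). Limma fits across all genes are therefore the sole tests given.

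The KO libraries differed from each other. In KO replicate 2, 35 of the 38 subunits lay above both EV controls (background 45.7% of tested genes) and 1 lay below both (41.4%). In KO replicate 1, 14 lay above both (41.3%) and 15 lay below both (42.8%). KO replicate 2 exceeded KO replicate 1 for 35 subunits, the exceptions being NDUFB4, NDUFS1 and NDUFV2, while 52.1% of all tested genes did so. The median difference from the EV controls was 0.00 (KO replicate 1) and 0.21 (KO replicate 2) on the log2(FPKM + 1) scale, beside 0.00 and 0.01 over all tested genes. The summed FPKM of the 38 subunits was 5235 and 6070 in the KO libraries and 5330 and 5234 in the EV controls. Subunits differed by a median of 0.21 between the KO libraries and by 0.05 between the EV controls (absolute log2 difference). Since these are bulk samples, a change in RNA per cell and a change in the make-up of the cells cannot be told apart.

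Both KO libraries lay above both EV controls for 14 subunits (background 26.5% of tested genes) and below them for 0 (25.6%). When each KO library was set alone against the EV controls, with its own spread assumed to equal that of the controls, 14 subunits passed as higher in KO replicate 2 (background 10.9%) and 0 as lower (6.62%). In KO replicate 1, NDUFB4 and NDUFS4 passed as higher (background 6.29%) and NDUFB1 and NDUFB8 as lower (6.94%) in limma-trend at an adjusted p under 0.05. In KO replicate 2 the differences were 0.30 for NDUFB4 and 0.30 for NDUFS4 (log2). Opposite to KO replicate 1, they were 0.40 for NDUFB1 and 0.20 for NDUFB8. The assumption on spread was not met among the subunits, which differed by a median of 0.21 between the KO libraries and 0.05 between the EV controls. Such passes show only that 1 library lies outside a close pair of controls.

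The catalytic core comprises 7 nuclear subunits of the matrix arm, with a median of -0.01 (KO replicate 1) and 0.13 (KO replicate 2). NDUFV1, which binds NADH and the flavin cofactor, had 85.4 and 107 FPKM in the KO libraries and 99.5 and 99.0 FPKM in the EV controls. Its partner NDUFV2, an iron-sulfur protein, had 203 and 199 FPKM in KO and 186 and 180 FPKM in EV control. For NDUFV1 the KO libraries thus lie on either side of the controls, and for NDUFV2 both lie above them. NDUFS1, the largest subunit and the carrier of several iron-sulfur clusters, had 31.6 and 30.3 FPKM in KO and 31.5 and 32.1 FPKM in EV control. It was the 1 subunit lower in KO replicate 2 than in both controls, at 95.4% of their mean.

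NDUFS7, which holds the last iron-sulfur cluster before ubiquinone, had 55.0 and 65.5 FPKM in KO and 56.6 and 54.0 FPKM in EV control. NDUFS8, another iron-sulfur subunit, had 96.5 and 108 FPKM in KO and 102 and 89.2 FPKM in EV control. NDUFS3, a core subunit that joins the matrix arm early in assembly, had 97.8 and 112 FPKM in KO and 104 and 101 FPKM in EV control. For these 3 subunits the groups overlapped and only KO replicate 2 exceeded both controls.

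The 9 accessory subunits of the matrix arm differed from the EV controls by a median of 0.04 (KO replicate 1) and 0.24 (KO replicate 2). NDUFS4, which steadies the NADH-oxidising tip and is mutated in Leigh syndrome, had 122 and 125 FPKM in the KO libraries and 103 and 101 FPKM in the EV controls. Its KO libraries were close to each other and both above both controls, by 1.22-fold on average (124 ± 2.21 in KO and 102 ± 1.51 in EV control, SD, n = 2 each, log2 difference 0.28, SE 0.077, limma-trend adjusted p = 0.229). The adjusted p of NDUFS4 lay between 0.20 and 0.444 in the 11 settings that kept all libraries. NDUFA7 had 95.3 and 111 FPKM in KO and 92.4 and 85.2 FPKM in EV control, again without overlap (adjusted p = 0.399, limma-trend).

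At the low end of abundance, NDUFV3, an accessory subunit with alternative isoforms, had 17.4 and 21.1 FPKM in KO and 22.9 and 20.7 FPKM in EV control. NDUFA5 was the least abundant of the 38, with 10.9 and 12.8 FPKM in KO and 12.4 and 12.5 FPKM in EV control. For both, KO replicate 1 was the lowest library. NDUFA5 and NDUFB4 each have 12 pseudogenes that bear their names in GENCODE release 29, which can share their reads, so their values are uncertain. Of the 38 subunits, 18 have at least 1 such pseudogene.

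For the 20 accessory subunits of the membrane arm the median was -0.05 (KO replicate 1) and 0.22 (KO replicate 2). NDUFB4 had 267 and 239 FPKM in the KO libraries and 196 and 192 FPKM in the EV controls. Both KO libraries lay above both controls, by 1.30-fold on average (253 ± 19.8 in KO and 194 ± 2.44 in EV control, SD, n = 2 each), and here KO replicate 1 was the higher of the KO pair. The difference of 0.38 (log2, SE 0.10) gave the smallest p-value of the 38 and did not pass (limma-trend adjusted p = 0.216, between 0.206 and 0.383 in the 11 settings that kept all libraries). NDUFC1, a small subunit with a single membrane helix, had 124 and 136 FPKM in KO and 111 and 106 FPKM in EV control (limma-trend adjusted p = 0.280). NDUFB5 had 97.4 and 108 FPKM in KO and 84.7 and 87.2 FPKM in EV control (limma-trend adjusted p = 0.283). Both stood 1.20-fold higher on average, with no overlap between the groups.

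NDUFA1, which is needed for the assembly of the membrane arm, had 442 and 481 FPKM in KO and 410 and 397 FPKM in EV control. NDUFA8, a protein of the intermembrane space face, had 106 and 124 FPKM in KO and 105 and 92.0 FPKM in EV control. In both genes the KO libraries were above the controls, in NDUFA8 by a small margin in KO replicate 1 (limma-trend adjusted p = 0.401 and 0.402).

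Levels differed 38.5-fold between the most and the least abundant subunit, although the proteins are assembled into the same complex. NDUFB9 had 454 and 505 FPKM in KO and 466 and 449 FPKM in EV control. NDUFS5 had 405 and 473 FPKM in KO and 438 and 430 FPKM in EV control. NDUFA13, also known as GRIM-19, had 310 and 361 FPKM in KO and 300 and 313 FPKM in EV control. These abundant membrane arm subunits were highest in KO replicate 2, while KO replicate 1 lay between the controls for NDUFB9 and NDUFA13 and below them for NDUFS5. NDUFA10, whose fold resembles that of nucleoside kinases, was among the least abundant with 20.9 and 23.7 FPKM in KO and 21.5 and 20.7 FPKM in EV control. FPKM divides by length, so these are levels per length, but they shift with the transcript length assumed, most of all for short transcripts.

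The gap between the KO libraries was widest for 4 subunits of the membrane arm, NDUFB1, NDUFB8, NDUFB2 and NDUFB6. NDUFB8 had 185 and 266 FPKM in the KO libraries and 239 and 224 FPKM in the EV controls, KO replicate 1 being the lowest and KO replicate 2 the highest of the 4. NDUFB2 showed the same order, with 154 and 213 FPKM in KO and 170 and 173 FPKM in EV control. NDUFB6 had 75.2 and 95.9 FPKM in KO and 83.1 and 83.3 FPKM in EV control. Averaging over the KO libraries left differences of -0.06 for NDUFB8, 0.08 for NDUFB2 and 0.03 for NDUFB6 (log2).

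**Figure D1:**
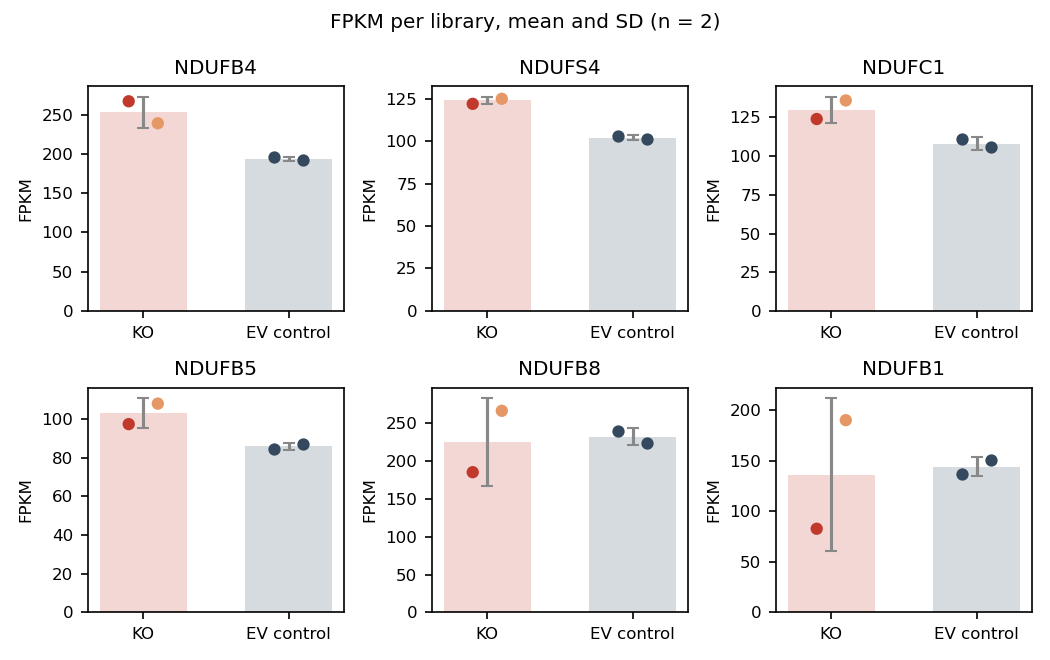
FPKM of 6 subunits in KO (left of each panel) and EV control (right), with points for libraries (KO replicate 1 left of KO replicate 2), bars for the mean and error bars for the SD of 2 libraries. NDUFB4, NDUFS4, NDUFC1 and NDUFB5 have both KO libraries above both EV controls, whereas in NDUFB8 and NDUFB1 the KO libraries lie on either side of them.

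NDUFB1, a small membrane arm subunit, had 82.7 and 190 FPKM in the KO libraries and 137 and 151 FPKM in the EV controls. KO replicate 1 thus stood at 57.5% of the EV control mean and KO replicate 2 at 132%. The average difference was -0.20 (log2, SE 0.39, limma-trend adjusted p = 0.823), with -0.79 (KO replicate 1) and 0.40 (KO replicate 2). It is the 1 subunit of the 38 encoded on chromosome 14, where it lies 8 tested genes distal of C14orf159 in RefSeq gene order. The 38 subunits lie on 18 chromosomes.

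The neighbours of NDUFB1 were also low in KO replicate 1. The 10 tested genes on each side of it, C14orf159 among them, had a median of 53.7% (KO replicate 1) and 99.6% (KO replicate 2) of the EV control mean, and 19 of the 20 were below both controls in KO replicate 1, against 42.8% of all tested genes and 91 of the 318 tested genes proximal of C14orf159. Over all 94 tested genes distal of C14orf159 the medians were 57.7% (KO replicate 1) and 104% (KO replicate 2). Over the proximal genes they were 105% (KO replicate 1) and 102% (KO replicate 2). In KO replicate 2, NDUFB1 was above the median of its neighbours. The start of NDUFB1 faces that of CPSF2, a subunit of the pre-mRNA cleavage machinery, on the opposite strand, with 263 bases between the RefSeq starts, so that 238 of the 300 bases of the NDUFB1 window printed above also belong to that of CPSF2. CPSF2 had 10.4 and 17 FPKM in KO and 17.9 and 19.2 FPKM in EV control, 56.0% and 91.7% of the control mean. In KO replicate 1 the facing genes stood at a similar share, and in KO replicate 2 they lay on opposite sides of the controls. Without NDUFB1 the median of the remaining subunits was 0.01 (KO replicate 1) and 0.20 (KO replicate 2), so the shift of KO replicate 2 does not rest on it.

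**Figure D2:**
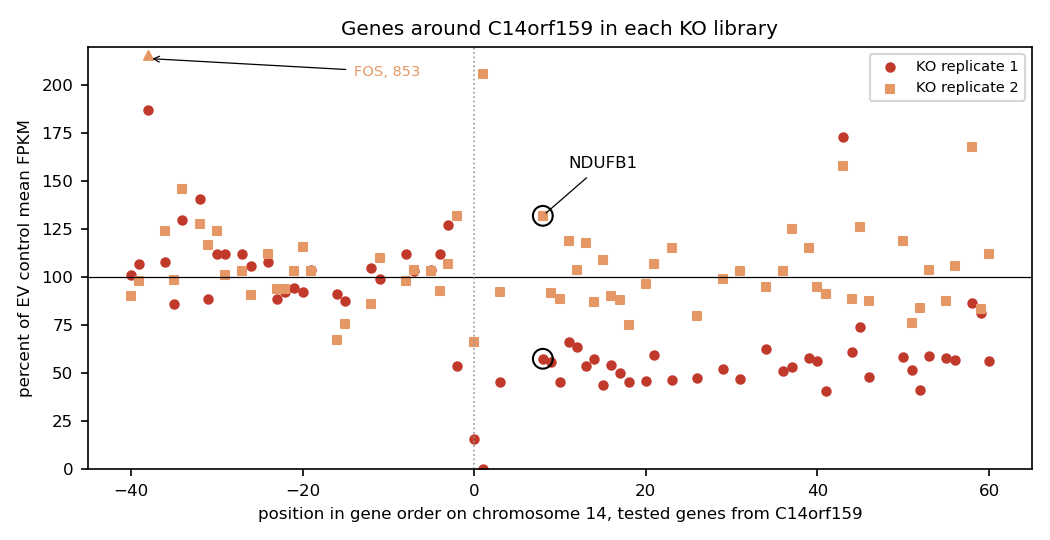
Percent of the EV control mean FPKM in KO replicate 1 (circles) and KO replicate 2 (squares) for genes averaging 5 FPKM or more, by order among tested genes of chromosome 14 from C14orf159 at 0, from 40 places proximal (left) to 60 distal (right). NDUFB1 (ringed) stands at 57.5% and 132%, amid distal genes with a median of 57.7% in KO replicate 1, and FOS at 853% in KO replicate 2 lies above the axis.

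The 14 subunits not described singly were NDUFA2, NDUFA3, NDUFA4, NDUFA6, NDUFA9, NDUFA11, NDUFA12, NDUFAB1, NDUFB3, NDUFB7, NDUFB10, NDUFB11, NDUFC2 and NDUFS6. They stood at 88.3% to 107% of the EV control mean in KO replicate 1 and at 102% to 123% in KO replicate 2 (limma-trend adjusted p between 0.465 and 0.961). Of these, NDUFA2, NDUFA4, NDUFA9, NDUFAB1 (the mitochondrial acyl carrier protein) and NDUFB3 were above both EV controls in each KO library, as were 26.5% of all tested genes. NDUFC2 shares exons with the annotated read-through gene NDUFC2-KCTD14, which was itself at 15.3 and 18.8 FPKM in KO and 14.4 and 13.3 FPKM in EV control, so reads may be split between them. NDUFA6, NDUFB2 and NDUFV2 have annotated antisense genes. NDUFA6-AS1 had 1.40 and 1.51 FPKM in KO and 2.22 and 2.21 FPKM in EV control, and no source used here says whether counting used strand.

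Transcript length moved with the difference of KO replicate 2 over all tested genes, and less plainly among the subunits. The 38 subunits have short transcripts, with a median of 944 nt against 2559 nt for all tested genes. Over all tested genes of up to 1000 nt the median difference was -0.01 (KO replicate 1) and 0.14 (KO replicate 2), whereas for those over 4000 nt it was -0.02 and -0.10. For the 22 subunits of up to 1000 nt it was 0.02 (KO replicate 1) and 0.22 (KO replicate 2). The 10 subunits above that and up to 2000 nt had 0.18 in KO replicate 2 (all genes of that length 0.10), the 4 above that and up to 4000 nt had 0.18 (all genes 0.01) and the 2 longer ones had 0.10 (all genes -0.10). After each library was corrected for transcript length and GC content, the median of the subunits in KO replicate 2 was 0.08 in place of 0.21, and 26 of 38 lay above both EV controls, against 41.7% of tested genes. The correction brought the core subunits to -0.035 and the accessory membrane arm subunits to 0.10 in KO replicate 2, with the accessory matrix arm subunits at 0.20. Quantile normalization, which forces equal distributions, gave subunit medians of 0.055 (KO replicate 1) and 0.084 (KO replicate 2), with 30 of 38 subunits above both EV controls in KO replicate 2, against 40.0% of tested genes.

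The other respiratory complexes were set beside complex I without a test of the difference. Nuclear genes listed with complexes III to V numbered 36, among them the associated factors ATPIF1 and COX7A2L. The 36 genes had a median of -0.01 (KO replicate 1) and 0.24 (KO replicate 2). Of these, 33 of 36 lay above both controls in KO replicate 2 (45.7% of all tested genes). Cytosolic ribosomal proteins had -0.03 and 0.26 (80 tested). After the length and GC correction, the KO replicate 2 medians were 0.16 for complexes III to V and 0.17 for ribosomal proteins, beside 0.08 for complex I. With that correction 29 genes of complexes III to V and 70 ribosomal protein genes lay above both EV controls in KO replicate 2, beside 26 complex I subunits. COX7A2L, a factor for joining complexes III and IV, had 116 and 115 FPKM in KO and 99.5 and 96.7 FPKM in EV control (limma-trend adjusted p = 0.268). The 4 subunits of complex II, which also feeds ubiquinone, had a median of -0.12 (KO replicate 1) and 0.05 (KO replicate 2). None of these genes reached an adjusted p under 0.05 in limma-trend. Before adjustment, p was under 0.05 for 2 genes of complexes III to V (both higher in KO), for 0 genes of complex II and for 1 ribosomal protein gene (lower in KO), against 9.23% of all tested genes higher and 7.22% lower.

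Complex I assembly factors, which build the complex without staying in it, had a lower median than the subunits in KO replicate 1, a difference that was not tested. It was -0.17 (KO replicate 1) and 0.035 (KO replicate 2) over 22 genes, 17 of the 22 were below both EV controls in KO replicate 1 (42.8% of all tested genes), and 0 passed the test. At an unadjusted p under 0.05, 1 was lower (7.22% of all tested genes) and 0 were higher (9.23%). NDUFAF7, a methyltransferase needed early in assembly, had 11.5 and 11.9 FPKM in KO and 14.2 and 14.4 FPKM in EV control (limma-trend adjusted p = 0.243). NUBPL, which delivers iron-sulfur clusters to complex I, had 4.87 and 5.34 FPKM in KO and 6.58 and 5.79 FPKM in EV control (adjusted p = 0.359). For both, each KO library was below both controls. ATP5SL, now named DMAC2 and required for the distal membrane arm, had 31.6 and 37.4 FPKM in KO and 28.5 and 30.1 FPKM in EV control (adjusted p = 0.378).

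Of 11 listed regulators of mitochondrial biogenesis, 10 were tested, as PPARGC1A stood at 0 FPKM in all libraries. The 10 had a median of -0.20 (KO replicate 1) and -0.025 (KO replicate 2), with 0 past the test. At an unadjusted p under 0.05 in limma-trend, 2 were lower (7.22% of all tested genes) and 0 higher (9.23%). PPRC1, a coactivator of the PGC-1 family, had 21.6 and 22.2 FPKM in KO and 30.0 and 28.7 FPKM in EV control (limma-trend adjusted p = 0.183). TFAM, which packages mitochondrial DNA and activates its transcription, had 12.9 and 15.3 FPKM in KO and 17.9 and 18.2 FPKM in EV control (limma-trend adjusted p = 0.247). Both KO libraries were below both controls for these genes. GABPB1, the partner subunit of GABPA, had 8.09 and 8.37 FPKM in KO and 9.13 and 9.52 FPKM in EV control (adjusted p = 0.401). NDUFA4L2, the hypoxia-inducible paralog of NDUFA4, stayed near or below 1 FPKM with 0.742 and 1.01 FPKM in KO and 0.490 and 0.681 FPKM in EV control, and was not tested.

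**Figure D3:**
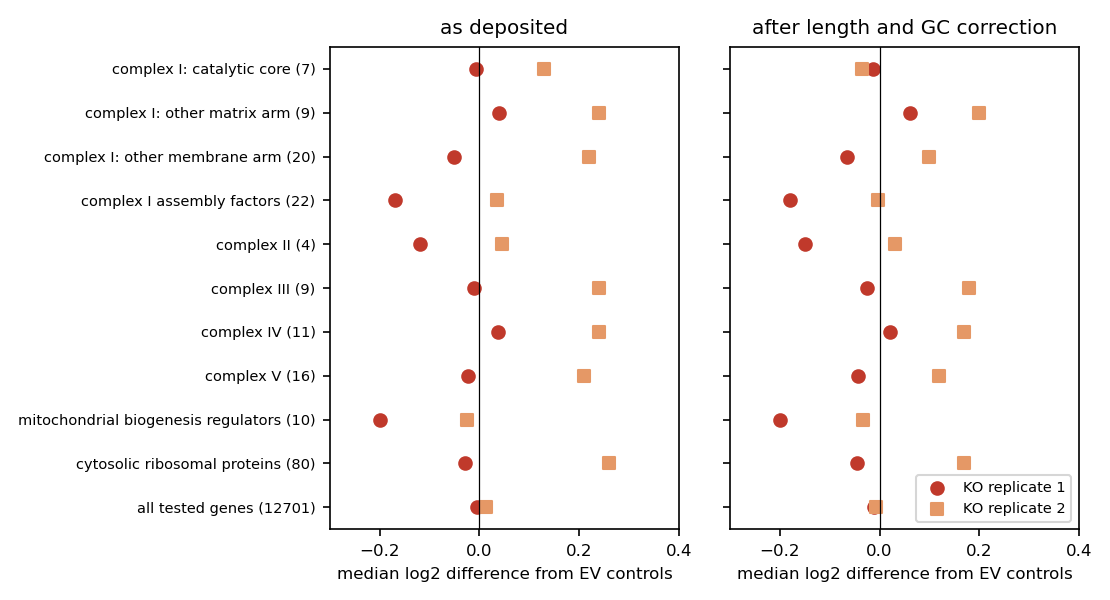
Median log2 difference from the EV controls for lists of genes (number tested in brackets) in KO replicate 1 (circles) and KO replicate 2 (squares), with FPKM as deposited on the left and after correction for transcript length and GC content on the right. In KO replicate 2 the deposited values place the accessory matrix arm at 0.24, the accessory membrane arm at 0.22 and the core at 0.13, beside 0.26 for ribosomal proteins, and the corrected values place them at 0.20, 0.10 and -0.035, beside 0.17.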

How the data were processed

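Total RNA of 4 HCT116 samples had been made into libraries with a stranded mRNA kit, per the labels' protocols. The authors deposited FPKM per gene symbol, 1 table for each library; TopHat2 2.0.13, Bowtie2 2.2.3, SAMtools 0.1.19, Cuffnorm 2.2.1 and the build hg19 were used, per the submitters' processing notes. Which annotation, strand setting and scaling went into the values is not stated in any source used here, and no read counts were used. The file headers name no unit, and FPKM is taken from the use of Cuffnorm.

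FPKM were transformed to log2(FPKM + 1), which understates changes of low genes. Genes with at least 1 FPKM in at least 2 libraries (12701) were fitted with limma 3.58.1 in R 4.3.3 (trend, group as the sole term, 2.82 prior degrees of freedom), and p-values were adjusted by Benjamini-Hochberg over all of them. The fit was tested on simulated data with equal spread in both groups, which the subunits did not show. Subunits were assigned to the core or to an arm of the complex by textbook knowledge. Transcript length and GC came from GENCODE release 29 (97.7% of tested genes) and promoter windows and gene order from RefSeq (GRCh38.p14), neither used as coordinates for the hg19 values.

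Values per library were given for NDUFB1, the 8 subunits with the smallest p-values, the 4 most and 3 least abundant, the 4 whose KO libraries differed most, and the 7 core subunits, with up to 3 genes of each other list. 1 subunit that this rule names is counted in every total but is not reported here by itself. The members, lists and tests were chosen with earlier results of these data known. Alternatives were other pseudocounts, filters, scalings and variance models, a replicate block, a length and GC correction, and leaving out each library.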

Additional observations from a re-analysis of the deposited data

How the results depend on the processing

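In every setting that kept all 4 libraries, 0 subunits passed the adjusted threshold. Leaving out each library in turn gave 0 to 14 passing subunits, 14 without KO replicate 1 (17.5% of all genes) and 4 without KO replicate 2 (13.2%), a lone library being assumed to vary like the others. The number higher at an unadjusted p under 0.05, 4 with all libraries, ranged from 0 (without EV replicate 1, 3.61% of all genes, or without EV replicate 2, 2.92%) to 22 (without KO replicate 1, 21.8%). Without KO replicate 2 it was 5 (15.7%), with 8 lower (17.4%). With a replicate block it was 1 (7.55%), and the block changed no other call. The replicate numbers do not pair the samples by any label, and same-numbered libraries did not deviate together (correlation 0.00 across genes).

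The median change of 0.09 ranged from 0.00 to 0.21 over all settings, lowest without KO replicate 2 or with the length and GC correction. The count of subunits above both EV controls in KO replicate 2, 35 as deposited, was 34 with median-of-ratios scaling (43.8% of all genes), 30 with quantile normalization (40.0%), 35 with equal library medians (45.4%) and 26 with the length and GC correction (41.7%), a count added after seeing the data, as was the median without NDUFB1 (0.10).

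Of 360 values for the 24 subunits named by the rule, 327 kept direction and side of the threshold, 13 gained a pass when a KO library was left out, and 21 changed sign, NDUFB1 without KO replicate 1 being in both of these counts. With the length and GC correction the signs changed for NDUFA13 (-0.0031), NDUFB9 (-0.0078), NDUFS5 (-0.016), NDUFB6 (-0.022), NDUFS7 (-0.029), NDUFS8 (-0.031) and NDUFS3 (-0.062), and with quantile normalization for NDUFS5 (-0.046). Leaving out libraries changed it for NDUFS5 (-0.10 to 0.12), NDUFS8 (-0.0034 to 0.19), NDUFA5 (-0.17 to 0.04), NDUFV1 (-0.21 to 0.11), NDUFB8 (-0.32 to 0.20), NDUFB1 (-0.79 to 0.40), NDUFS7 (-0.0074 to 0.24), NDUFB9 (-0.012 to 0.14), NDUFA10 (-0.016 to 0.16), NDUFS3 (-0.067 to 0.13), NDUFB6 (-0.14 to 0.20) and NDUFB2 (-0.16 to 0.31). The cause was not tested.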
